A study of Mus musculus with 18 samples.

Results

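GFI1 is a zinc finger repressor that myeloid cells need to become neutrophils, and the results below follow *Gfi1*, its paralogue *Gfi1b* and 8 genes of the histone-modifying machinery that both factors bring to DNA. The 10 genes were *Gfi1*, *Gfi1b*, *Kdm1a*, *Rcor1*, *Rcor3*, *Hdac1*, *Hdac2*, *Hdac3*, *Hmg20b* and *Phf21a*. They were chosen by symbol, with earlier results of these data known, and all 10 were found among the 34896 genes of the expression table and passed the filter that left 13061 genes tested. The values are RNA levels in granulocyte-monocyte progenitors (GMPs), pre-neutrophils (preNeu) and mature neutrophils (matNeu) and ChIP-seq peaks within 10 kb of each gene.

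GFI1 and GFI1B carry a SNAG domain at the amino terminus, a short stretch that imitates the histone H3 tail and is bound by the demethylase LSD1, the product of *Kdm1a*. LSD1 removes methyl groups from mono- and dimethylated H3K4, a mark of active promoters and enhancers. The CoREST scaffolds RCOR1 and RCOR3 tie LSD1 to the deacetylases HDAC1 and HDAC2, while HMG20B and PHF21A are accessory subunits of the same complex, and HDAC3 is the deacetylase of the NCoR and SMRT corepressors. HDAC1 and HDAC2 also belong to NuRD, whose ATPase CHD4 was mapped here.

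The study sorted these cells from bone marrow of C57BL/6 mice of 6 to 12 weeks. RNA-seq covered 3 libraries of each of the stages, all wild type. CHD4 ChIP-seq was done on wild type and *Gfi1*-/- GMPs, H3K4me2 ChIP-seq on all stages and ATAC-seq on preNeu and matNeu, both wild type, with 1 library each and so without a replicate check. No treatment is given for any group. The sources used here do not say which part of *Gfi1* the *Gfi1*-/- allele lacks, whether the RNA libraries came from separate mice or how many mice were pooled for a ChIP, so that p-values measure only the spread between these libraries, which may be technical. Groups were taken from the sample titles, since the cell type given elsewhere in the labels differed from the title in 13 of 18 samples.

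RNA levels are in TPM, a gene's length-corrected share of all transcripts of its library scaled to the same total everywhere, so that read depth is unknown. The titles fitted the markers of each stage: *Cd34*, a surface protein of progenitors used in the GMP gate, was at 425 to 498 TPM in GMP libraries and at 1.22 to 3.27 TPM in the others, and the summed preNeu and matNeu marker lists were highest in the libraries of those names. Summed markers of monocytes were at 4333 to 5154, 1685 to 2218 and 1052 to 1424 TPM in GMP, preNeu and matNeu libraries, of eosinophils at 852 to 1101, 38.8 to 50.7 and 35.9 to 54.1 TPM, and of basophils and mast cells at 524 to 709, 310 to 492 and 1.73 to 12.6 TPM. Those of T and NK cells were at 461 to 613, 216 to 252 and 10.6 to 15.8 TPM, nearly all of it *Nkg7* in GMPs and preNeu, with *Cd3e* and *Trbc2* listed at 0 in every GMP library. Those of B cells were at 79.4 to 94.6, 26.5 to 49.4 and 58.0 to 125 TPM. The part of these cell types in the changes below was not tested. The share of the 10 most abundant genes was lowest in GMPs, with 9.15% to 9.78%, against 24.1% to 28.3% for preNeu and 12.7% to 15.9% for matNeu. TPM are shares, so that a larger part for some genes leaves less for the others. The median of all genes tested changed by -0.52 (log2) in preNeu against GMP, -0.32 in matNeu against preNeu and -0.92 in matNeu against GMP. From preNeu to matNeu the share of the 10 most abundant genes was lower, not higher, and the cause of the shifts was not tested. Each change below should be read against these medians. After scaling by the median of ratios these medians were -0.09, -0.07 and -0.20, and calls that this moved are named.

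In the order of differentiation, *Gfi1* RNA rose and then was almost undetectable, *Gfi1b* was highest in GMPs, 6 of the 8 partner genes fell between preNeu and matNeu or already before, and *Phf21a* alone rose into matNeu cells among the 10. In bulk samples a change of level can come from fewer cells that make an RNA or from less of it per cell, and these cannot be told apart.

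**Figure D1:**
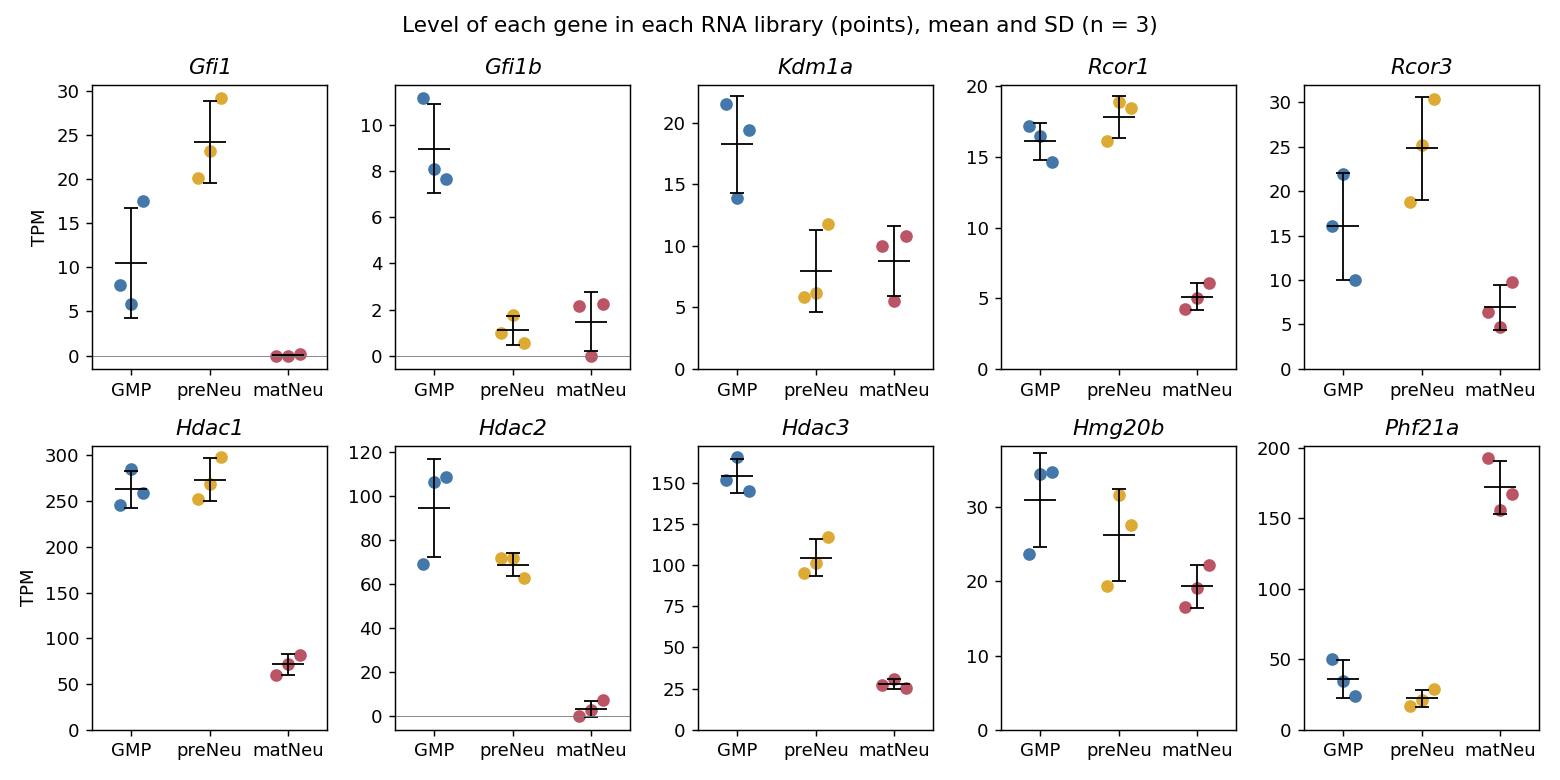
RNA level (TPM, y axis of each panel starting near 0) of the 10 genes in the 3 GMP, 3 preNeu and 3 matNeu libraries. Points are libraries, long lines the means and bars the SD. *Gfi1* peaks in preNeu cells at 20.1 to 29.2 TPM, and *Phf21a* reaches 156 to 193 TPM in matNeu cells.

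*Gfi1* (ENSMUSG00000029275) lies on the minus strand at chr5:107716657-107726036 of GRCm38, the build of all coordinates here. It was at 8.01, 5.88 and 17.5 TPM in the GMP libraries, at 20.1, 23.2 and 29.2 TPM in preNeu and listed at 0, 0 and 0.145 TPM in matNeu. The stages did not overlap, although the third GMP library, at 17.5 TPM, came close to the lowest preNeu library. The mean went from 10.5 ± 6.20 (SD, n = 3) in GMPs to 24.2 ± 4.61 in preNeu, a ratio of 2.31. By limma, *Gfi1* rose by 1.25 ± 0.35 (log2 ± SE, adjusted p = 0.0108) and then fell by 4.57 ± 0.35 into matNeu cells (adjusted p = 9.26e-07), a size that depends on the pseudocount since the gene is listed at 0. When 0.1 rather than 1 was added before the logarithm, the rise of *Gfi1* was 1.34 with an adjusted p of 0.0557 and was no longer called. These are RNA levels only. From GFP in *Gfi1*:GFP knock-in mice, the study reported expression of the gene and an active promoter in the sorted stages. By western blot of these stages, it reported more GFI1 protein in matNeu than in preNeu cells, the opposite order to the RNA here. The reason for this difference was not tested.

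*Gfi1b* (ENSMUSG00000026815, minus strand, chr2:28609450-28621982) is the paralogue that erythroid and megakaryocytic cells use, and GFI1 is known to repress it. It was at 11.2, 8.09 and 7.65 TPM in GMPs, at 0.9753, 1.79 and 0.546 TPM in preNeu and at 2.16, 0 and 2.27 TPM in matNeu. The GMP libraries stood apart from all others, and the preNeu and matNeu libraries overlapped. *Gfi1b* fell by 2.27 ± 0.45 from GMP to preNeu (adjusted p = 0.00138). From preNeu to matNeu the change of 0.09 had an adjusted p of 0.876 and a 95% interval from -0.91 to 1.09, so that a change of up to about that size either way would not have been seen.

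The balance of the pair also differed between the stages, which a ratio within each library shows without any scaling, although *Gfi1* had the higher mean already in GMPs. *Gfi1* over *Gfi1b* was 0.718, 0.727 and 2.29 in GMPs and 20.6, 12.98 and 53.4 in preNeu, with no overlap, and 0 and 0.0637 in the matNeu libraries in which *Gfi1b* was not listed at 0. This ratio, like the others below, was chosen after the values were seen. Marker genes of megakaryocytes summed to 37.8 to 53.8 TPM in GMPs and to 5.96 to 10.002 in preNeu, and those of erythroid cells to 22.04 to 33.8 and 19.4 to 36.2 TPM. Their part in the *Gfi1b* level was not tested. Of the 6 megakaryocyte markers, 4 were above 1 TPM in GMPs, with none listed at 0 in every library, and of the 9 erythroid markers 5 were above 1 TPM, with *Hbb-bt* and *Hba-a1* at 0.

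The genes whose pattern over the 9 libraries was most like *Gfi1*, by the root mean square difference of centred log2(TPM + 1), were *Fam83d* (0.266), *D030056L22Rik* (0.333), *Sfmbt1* (0.357), *Trim59* (0.361) and *Kif18a* (0.386), where the median gene differed by 1.91. *Kif18a*, a kinesin of the mitotic spindle, was at 19.1 ± 2.04, 41.9 ± 4.57 and 0.342 ± 0.103 TPM over the stages (SD, n = 3). *Fam83d*, another spindle protein, was at 13.4 ± 5.14 and 32.9 ± 4.70 TPM and listed at 0 in all matNeu libraries. The 5 cycling markers fixed for these cells (*Mki67*, *Top2a*, *Ccnb1*, *Cdk1* and *Birc5*) had summed levels of 2172 to 2231 TPM in preNeu, above the 1061 to 1129 TPM of GMPs and the 6.21 to 10.95 TPM of matNeu, the same order as *Gfi1*, and their part in its level was not tested.

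*Kdm1a* (minus strand, chr4:136550540-136602723) encodes LSD1, the enzyme that the SNAG domain holds. It was at 21.5, 13.8 and 19.4 TPM in GMPs, at 5.83, 6.17 and 11.8 TPM in preNeu and at 10.03, 5.49 and 10.8 TPM in matNeu. The GMP libraries were above all others, and preNeu and matNeu overlapped. *Kdm1a* fell by 1.15 ± 0.33 from GMP to preNeu (adjusted p = 0.0114), which is 0.63 below the median gene, but under the median of ratios the change was -0.67 (adjusted p = 0.0964) and without the 100 most abundant genes -0.79 (adjusted p = 0.0702). From preNeu to matNeu it changed by 0.14 (adjusted p = 0.728, 95% interval -0.58 to 0.87). The 5 genes most like it were *C530008M17Rik* (0.172), *Arid1b* (0.178), *Npff* (0.190), *Zfp157* (0.213) and *Dyrk2* (0.215), against 0.940 for the median gene, and *C530008M17Rik* itself was at only 1.49 ± 0.332 TPM in GMPs.

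The scaffolds behaved differently from the enzyme at the first step. *Rcor1* (plus strand, chr12:111039351-111115901) was at 17.2, 16.5 and 14.6 TPM in GMPs, at 16.1, 18.9 and 18.5 TPM in preNeu and at 4.21, 5.02 and 6.11 TPM in matNeu. *Rcor3* (minus strand, chr1:192098546-192138062) was at 16.1, 21.96 and 9.99 TPM in GMPs, at 18.8, 25.2 and 30.4 TPM in preNeu and at 6.36, 4.75 and 9.73 TPM in matNeu. For both genes GMP and preNeu libraries overlapped and matNeu libraries lay below all others, although *Rcor3* in the third GMP library was only just above the highest matNeu library. Neither was called from GMP to preNeu, with changes of 0.14 (adjusted p = 0.588) for *Rcor1* and 0.64 (adjusted p = 0.116) for *Rcor3*, but both were under the median of ratios, at 0.62 (adjusted p = 0.0207) and 1.12 (adjusted p = 0.0106), and also without the 100 most abundant genes. From preNeu to matNeu *Rcor1* fell by 1.63 ± 0.20 (adjusted p = 4.06e-05) and *Rcor3* by 1.72 ± 0.33 (adjusted p = 0.000833). Each overlaps other annotated transcripts in its exons, *Rcor1* with *Gm48632* and *Rcor3* with *Gm26879*, *Gm37055* and *Gm10516*, as *Gfi1* does with *A430072P03Rik*, and how shared reads were assigned is not given in the sources used here.

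In levels per length, *Rcor1* over *Kdm1a* was 0.799, 1.19 and 0.755 in GMPs, 2.76, 3.06 and 1.57 in preNeu and 0.419, 0.914 and 0.566 in matNeu. Every preNeu ratio was above every ratio of the other stages, and in 1 GMP library, too, *Rcor1* was above *Kdm1a*. *Rcor1* over *Rcor3* was 0.751 to 1.46, 0.608 to 0.857 and 0.628 to 1.06 over the stages, and these ranges overlapped.

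The deacetylases were the most abundant genes of the group in GMPs and preNeu. *Hdac1* (minus strand, chr4:129516104-129542713) was at 245, 285 and 259 TPM in GMPs, at 252, 269 and 299 TPM in preNeu and at 60.0, 72.1 and 82.0 TPM in matNeu. *Hdac2* (plus strand, chr10:36974544-37001889) was at 69.1, 106 and 109 TPM, at 72.1, 71.9 and 62.7 TPM and at 0.159, 2.69 and 7.27 TPM. *Hdac3* (minus strand, chr18:37935844-37955016) was at 152, 166 and 145 TPM, at 95.3, 102 and 117 TPM and at 26.9, 31.1 and 25.3 TPM. All 3 were lowest in matNeu with no overlap, and *Hdac3* alone was also separated between GMP and preNeu.

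From GMP to preNeu, *Hdac1* changed by 0.05 (adjusted p = 0.756) and *Hdac2* by -0.43 (adjusted p = 0.528), while *Hdac3* fell by 0.56 ± 0.14 (adjusted p = 0.00483). That fall is the size of the median of all genes, and under the median of ratios *Hdac3* changed by -0.05 (adjusted p = 0.797) and *Hdac1* rose by 0.57 (adjusted p = 0.00361). From preNeu to matNeu *Hdac1* fell by 1.93 ± 0.14 (adjusted p = 4.94e-07), *Hdac2* by 4.41 ± 0.55 (adjusted p = 3.73e-05) and *Hdac3* by 1.88 ± 0.14 (adjusted p = 5.89e-07). *Hdac1* and *Hdac2*, whose proteins form pairs in CoREST and NuRD, were at a ratio of 2.38 to 3.55 in GMPs and 3.49 to 4.76 in preNeu, and at 377, 26.8 and 11.3 in the matNeu libraries, where the spread of *Hdac2* sets the ratio.

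*Hmg20b* (minus strand, chr10:81346048-81350480), which encodes the HMG-box subunit also called BRAF35, was not called between neighbouring stages. It was at 23.7, 34.5 and 34.8 TPM in GMPs, at 19.4, 31.6 and 27.7 TPM in preNeu and at 16.6, 19.1 and 22.3 TPM in matNeu. Neighbouring stages overlapped, with changes of -0.24 (adjusted p = 0.405, 95% interval -0.75 to 0.27) and -0.40 (adjusted p = 0.151, interval -0.92 to 0.11). From GMP to matNeu it fell by 0.64 ± 0.23 (adjusted p = 0.0256), but this is 0.28 above the median gene, and under the median of ratios the sign turned to 0.21 (adjusted p = 0.374).

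*Phf21a* (plus strand, chr2:92093117-92364666) encodes BHC80, a reader of unmethylated H3K4 in the complex. It was at 49.9, 34.3 and 23.7 TPM in GMPs, at 16.8, 20.98 and 28.7 TPM in preNeu and at 193, 156 and 167 TPM in matNeu. GMP and preNeu libraries overlapped, and every matNeu library was above 3 times the highest of the others. The change from GMP to preNeu was -0.65 ± 0.26 (adjusted p = 0.0563), and *Phf21a* then rose by 2.93 ± 0.26 (adjusted p = 3.09e-06), a ratio of means of 7.76. Its mean stood at the 61.7th percentile of genes tested in GMPs, the 59.8th in preNeu and the 93.0th in matNeu. *Phf21a* over *Kdm1a* was 2.32, 2.48 and 1.22 in GMPs, 2.87, 3.40 and 2.43 in preNeu and 19.2, 28.4 and 15.5 in matNeu.

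**Figure D2:**
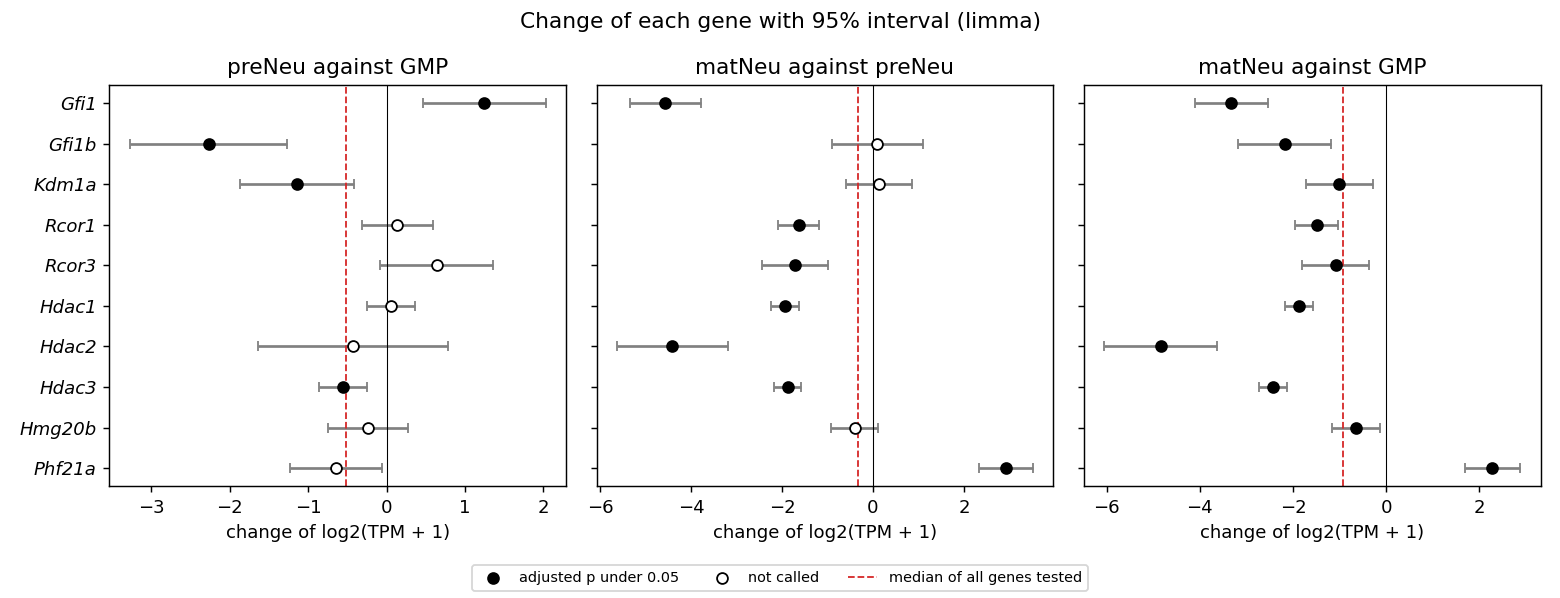
Change of log2(TPM + 1) of each gene in the 3 comparisons by limma (x axis), with 95% intervals as bars. Filled points passed an adjusted p of 0.05, open ones did not, and the dashed red line is the median of all 13061 genes tested. *Gfi1* is to the right of that line in the first panel and *Phf21a* in the other panels, at 2.93 and 2.28.

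Counted over the group, preNeu against GMP gave 1 gene called higher (*Gfi1*) and 3 lower (*Gfi1b*, *Kdm1a* and *Hdac3*) of 10, where 14.7% of all genes tested were called higher and 44.3% lower. In matNeu against preNeu 1 was called higher (*Phf21a*) and 6 lower (*Gfi1*, *Rcor1*, *Rcor3*, *Hdac1*, *Hdac2* and *Hdac3*), beside 22.9% and 39.8% of all genes. In matNeu against GMP *Phf21a* was called higher and the other 9 lower, beside 22.8% and 54.1%. The median change of the 10 genes was -0.33, -1.68 and -1.68, and 6, 3 and 2 of them lay above the median of all genes. The shares of lower calls among all genes are themselves high, and under the median of ratios 45.1%, 47.2% and 45.2% of all calls were higher, against 24.98%, 36.5% and 29.6% as reported here (40.6%, 31.4% and 33.1% without the 100 most abundant genes).

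Under the median of ratios, preNeu against GMP gave 4 members called higher (*Gfi1*, *Rcor1*, *Rcor3* and *Hdac1*) and 1 lower (*Gfi1b*). In matNeu against GMP the median of ratios left 6 lower, since *Kdm1a* at -0.19 (adjusted p = 0.590) and *Rcor3* at -0.28 (adjusted p = 0.408) were no longer called and *Hmg20b* turned. As reported, *Gfi1* fell by 3.32 ± 0.35 from GMP to matNeu (adjusted p = 6.25e-06), *Hdac2* fell by 4.84 ± 0.55 (adjusted p = 1.05e-05) and *Hdac3* fell by 2.43 ± 0.14 (adjusted p = 3.75e-08). The rise of *Phf21a* was 2.28 ± 0.26 (adjusted p = 1.27e-05).

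The levels also changed order. By mean TPM, GMPs ran from *Hdac1* over *Hdac3* and *Hdac2* to *Phf21a* and *Hmg20b*, followed by *Kdm1a*, *Rcor1*, *Rcor3*, *Gfi1* and *Gfi1b*, and within each of these last runs neighbours overlapped. In preNeu the deacetylases stayed on top, *Hmg20b*, *Rcor3*, *Gfi1*, *Phf21a* and *Rcor1* overlapped from neighbour to neighbour, and *Kdm1a* and then *Gfi1b* lay below without overlap. In matNeu *Phf21a* came first, above *Hdac1*, *Hdac3* and *Hmg20b*, each separated from the next, and the rest overlapped from neighbour to neighbour.

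The wider complex was followed with 27 further genes of CoREST-type complexes and SNAG-domain factors, of which 26 were in the table and 18 were tested. From GMP to preNeu 0 were called higher and 7 lower by limma, from preNeu to matNeu 7 and 8, and from GMP to matNeu 5 and 10, with medians of -0.57, -0.23 and -0.65, where all genes tested had -0.52, -0.32 and -0.92. The lower calls, 7, 8 and 10 of 18, are near the 44.3%, 39.8% and 54.1% of all genes called lower, beside 14.7%, 22.9% and 22.8% called higher. Beside the 0 genes called higher from GMP to preNeu, 1 was higher at an unadjusted p under 0.05. *Gtf2i*, a subunit found with HDAC1 and LSD1, fell by 4.51 ± 0.19 from GMP to matNeu (adjusted p = 4.08e-09), from 116 ± 9.08 to 4.11 ± 0.389 TPM. *Ehmt1*, an H3K9 methyltransferase, fell by 2.498 ± 0.17 (adjusted p = 1.94e-07), *Mier2*, a scaffold for HDAC1, fell by 4.16 ± 0.48 (adjusted p = 1.22e-05) and the zinc finger subunit gene *Zmym3* fell by 2.96 ± 0.35 (adjusted p = 1.52e-05).

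Of those that rose, *Ncor1*, the corepressor that holds HDAC3, went from 87.4 ± 0.526 to 193 ± 32.9 TPM (1.12 ± 0.14, adjusted p = 2.35e-05). *Snai1*, another SNAG-domain repressor, was listed at 0 in all GMP libraries and was at 8.06, 3.10 and 9.29 TPM in matNeu. Since *Snai1* passed the filter through these libraries alone, its calls are not read as a result, although they are in the counts above. *Gfi1* was listed at 0, 0 and 0.145 TPM in the same matNeu libraries.

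Of 15 genes described as targets of GFI1, all tested, 4 were called higher and 7 lower from GMP to preNeu, 7 and 3 from preNeu to matNeu, and 8 and 6 from GMP to matNeu, with medians of -1.04, 0.56 and 1.07. Over all genes tested 14.7% and 44.3%, 22.9% and 39.8%, and 22.8% and 54.1% were called higher and lower in these comparisons, so that the 7 of 15 lower from GMP to preNeu are near the share of all genes. *Mmp8*, a collagenase of neutrophil granules, rose by 9.57 ± 0.21 from GMP to matNeu (adjusted p = 1.19e-10), and *Id2*, an inhibitor of bHLH factors, by 3.40 ± 0.16 (adjusted p = 1.17e-08). *Id2* was at 9.32 ± 2.03, 399 ± 15.2 and 107 ± 12.3 TPM over the stages (SD, n = 3), so that its level, like that of *Gfi1*, was highest in preNeu. *Cd34* fell by 7.34 ± 0.25 (adjusted p = 1.20e-09) and *Irf8*, a factor of the monocyte lineage, fell by 5.53 ± 0.30 (adjusted p = 3.20e-08). *Elane*, the neutrophil elastase, fell by 11.31 ± 0.59 (adjusted p = 2.32e-08). *Egr2* passed the filter through matNeu libraries, with means of 0.0344, 0.144 and 4.05 TPM over the stages. *Hoxa9* (24.9, 0.714 and 0.187 TPM) and *Meis1* (32.9, 0.296 and 1.03 TPM) would not have passed it without the GMP libraries. The calls of *Egr2*, *Hoxa9* and *Meis1* are not read as a result, although they are in the counts above. The members of both lists were named with earlier results of these data known.

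CHD4 at the 10 genes was next read from the peak lists, in which each peak carries the fold enrichment (signal over local background) that the authors' peak caller gave it. The list of wild type GMPs held 35790 peaks and that of the library labelled *Gfi1*-/- 7316, so that any difference between them is between 2 libraries of unlike yield. Within 10 kb of the 10 genes lay 27 wild type sites, at 6 of the genes, beside 32.4% of 21938 protein-coding genes with a site within that distance. *Gfi1* had 10, *Gfi1b* 6, *Hdac3* 4, *Kdm1a* 3, *Phf21a* 3 and *Rcor3* 1, and *Rcor1*, *Hdac1*, *Hdac2* and *Hmg20b* had none. At least 10 sites were found at 2.88% of protein-coding genes, and at 14 of the 4399 genes within 1.5 times the length of *Gfi1* (0.318%). At least 6, as at *Gfi1b*, were found at 1.81% of genes near its length.

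Of the 10 sites at *Gfi1*, 4 had their summit in the gene, 3 lay upstream and 3 downstream. The strongest, at chr5:107721047-107721917, had a fold enrichment of 45.3, above 98.8% of all wild type sites, with its summit in an intron next to a coding exon. This peak was 71.9% coding and was also in the library labelled *Gfi1*-/-, and whether its signal and that of the other peaks on coding exons described here came from chromosomal DNA was not tested. Sites at chr5:107720014-107720365 (36.6) and chr5:107717725-107717981 (15.1) lay on later coding exons, and a weak one at chr5:107723673-107723873 (5.23) on an early one. At the annotated start itself CHD4 was weak, with fold enrichments of 3.63 and 3.58 at chr5:107726117-107726541 and chr5:107726671-107726903. Downstream of the gene, 17.9 and 19.6 kb from the start, were 2 strong sites with 30.1 and 26.4.

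All 6 sites of *Gfi1b* lay in the gene. The strongest, at chr2:28615736-28616120, had a fold enrichment of 46.5 and lay 6.06 kb from the start, in the first intron and just upstream of a short annotated transcript. Sites at chr2:28609809-28610364 (16.2), chr2:28611353-28611867 (11.8) and chr2:28613714-28613928 (7.45) lay on coding exons towards the 3′ end, and a site at chr2:28621723-28621954 (7.38) lay at the annotated start. The 201 bases around the summits of the strongest site of each paralogue are shown because these are the points where CHD4 signal at the genes was highest. They are read from GRCm38 on the plus strand, which is opposite to both genes, with annotated exon in capitals (83 bases at *Gfi1*, none at *Gfi1b*).
Gfi1, chr5:107721186-107721386: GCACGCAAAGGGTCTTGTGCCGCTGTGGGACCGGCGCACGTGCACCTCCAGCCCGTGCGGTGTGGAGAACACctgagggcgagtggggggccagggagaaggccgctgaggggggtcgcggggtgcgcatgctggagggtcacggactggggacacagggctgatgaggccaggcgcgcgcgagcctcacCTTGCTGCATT
Gfi1b, chr2:28615822-28616022: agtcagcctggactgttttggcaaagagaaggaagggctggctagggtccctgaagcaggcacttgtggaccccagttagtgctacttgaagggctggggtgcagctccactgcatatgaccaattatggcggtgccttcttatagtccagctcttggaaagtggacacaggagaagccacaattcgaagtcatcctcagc

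**Figure D3:**
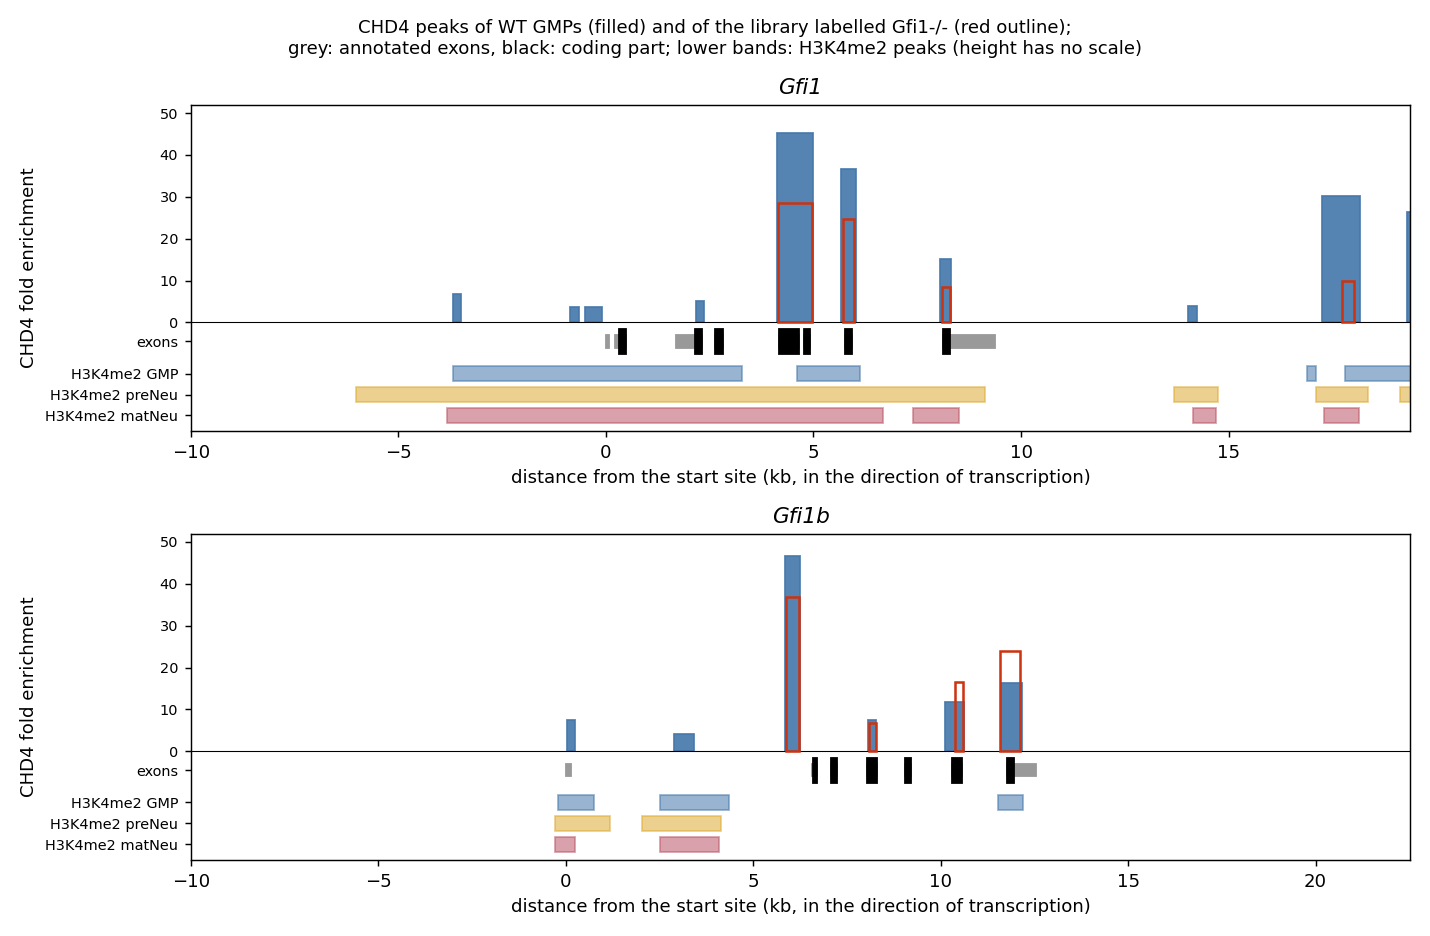
CHD4 and H3K4me2 peaks along *Gfi1* and *Gfi1b*, with distance from the annotated start in kb in the direction of transcription on the x axis and CHD4 fold enrichment on the y axis. Filled bars are peaks of wild type GMPs and red outlines those of the library labelled *Gfi1*-/-, and exons (coding part black) and H3K4me2 peaks are drawn below without a vertical scale. The strongest CHD4 sites are at 45.3 and 46.5, and at *Gfi1b* 2 red outlines are taller than the filled bars. The last *Gfi1* site (26.4) runs past the window. Its peak in the library labelled *Gfi1*-/- (5.83) lies outside the window and is not drawn.

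The other genes had weaker sites. Those of *Kdm1a* had fold enrichments of 8.69, 11.8 and 7.38 and lay 25.6 to 30.1 kb from the start, the last of them on a coding exon where a shorter annotated transcript begins. Those of *Phf21a* had 8.90, 9.22 and 6.52 and lay in introns 161 to 168 kb from the annotated start. The site near *Rcor3*, at 6.21, was downstream of the gene and closer to the start of *Traf5*, 2535 bp away. The 4 sites near *Hdac3* were also downstream, with *Diaph1* as the nearest start, and the strongest of them had a fold enrichment of 30.03. None of the 27 sites was at the annotated start of *Kdm1a*, *Rcor3*, *Hdac3* or *Phf21a*.

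Of the 27 sites, 10 were also in the list of the library labelled *Gfi1*-/-, 5 at *Gfi1*, 4 at *Gfi1b* and 1 near *Hdac3*, where 18.5% of all wild type sites were. At 3 of the 10 genes there was a peak of that library, beside 10.2% of protein-coding genes. Whether a site was kept followed its height in the whole list: 90.5% of wild type sites at 20 or above were kept, 49.9% of those from 15 to 20 and 1.27% of those from 5 to 7.5. At the 10 genes 6 of 6, 2 of 2 and 1 of 7 were kept in these ranges. From 10 to 15, from 7.5 to 10 and under 5, 18.8%, 5.09% and 2.73% of all wild type sites were kept. At the 10 genes these ranges had 1 of 2, 0 of 3 and 0 of 7. The share kept is thus to be read against the height of the sites.

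The height that remained differed between the genes. Over all 6632 kept sites the fold enrichment in the library labelled *Gfi1*-/- was 0.328 times that in wild type at the median (interquartile range 0.262 to 0.420), and 93 sites (1.4%) were higher in it. The 2 sites downstream of *Gfi1* had ratios of 0.220 and 0.329, while the 3 on its gene body had 0.569, 0.678 and 0.631, above 90.1%, 93.6% and 92.5% of kept sites. *Gfi1b* had 1.47, 1.41, 0.894 and 0.793, above 99.8%, 99.7%, 97.6% and 95.9% of kept sites, and its sites at chr2:28609809-28610364 and chr2:28611353-28611867 were higher in the library labelled *Gfi1*-/- (23.9 against 16.2 and 16.6 against 11.8). The site near *Hdac3* had 0.3602. With 1 library each these are values of 2 libraries and not tested. The percentiles are not matched for height. Few weak wild type sites were kept, and a weak site enters only if a peak was also called in the other library, which favours high ratios among weak sites.

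**Figure D4:**
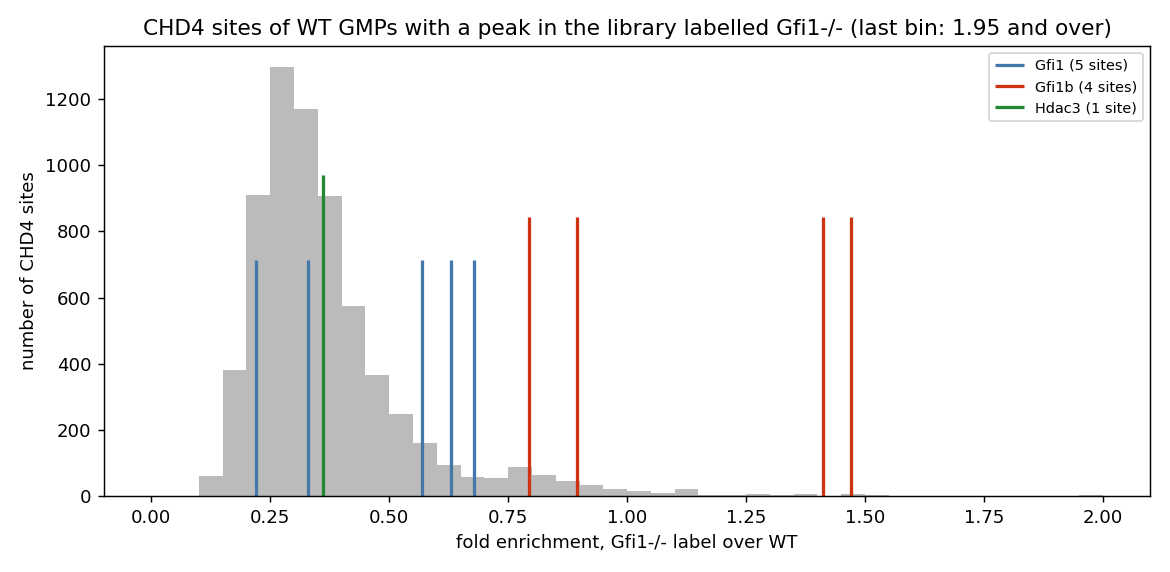
Fold enrichment in the library labelled *Gfi1*-/- divided by that in wild type GMPs (x axis) for the 6632 CHD4 sites found in both lists, as a histogram of the number of sites (y axis). Coloured lines are the sites at *Gfi1*, *Gfi1b* and near *Hdac3*, and their height has no meaning. The median is 0.328, and all 4 *Gfi1b* sites lie between 0.793 and 1.47.

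Several of these sites coincide with coding exons. Of all wild type sites, 2.38% were coding over at least 25% of their bases, but 8 of the 27 at the 10 genes were, 4 at *Gfi1*, 3 at *Gfi1b* and 1 at *Kdm1a*, and 6 of the 10 kept. Peaks of the library labelled *Gfi1*-/- overlapped 4 of the 7 coding exons of *Gfi1* and covered 959 of its 1467 coding bases, and covered 542 of 1089 coding bases of *Gfi1b*. Peaks thus lay over most of the *Gfi1* coding sequence in that library, whose genotype is known only from its label. Without sites that are at least 25% coding, an alternative chosen after seeing the data, 19 sites remained, of which 4 were kept.

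GFI1 and GFI1B bind DNA at a site with the core AAATCA. On either strand this core occurred in 1 of the 27 windows of 201 bp around the summits, the strong site near *Hdac3*, beside 12.1% of 35728 such windows over the genome, and the longer form AATCACNGC in 0, beside 0.498%. In RefSeq promoter windows of 300 bp (GRCm38.p6), which matched 8 of the 10 genes with 12 windows, the core was found once, at *Gfi1b*, beside 14% of 32851 windows, and the longer form in 0, beside 0.919%. The *Gfi1b* promoter is shown because it holds that match (in capitals). The CHD4 peak of wild type GMPs at chr2:28621723-28621954 overlaps only the last bases shown, with its summit outside the window. The match lies outside that peak. The window is given on the minus strand, in the direction of the gene.
Gfi1b promoter, chr2:28621933-28622232: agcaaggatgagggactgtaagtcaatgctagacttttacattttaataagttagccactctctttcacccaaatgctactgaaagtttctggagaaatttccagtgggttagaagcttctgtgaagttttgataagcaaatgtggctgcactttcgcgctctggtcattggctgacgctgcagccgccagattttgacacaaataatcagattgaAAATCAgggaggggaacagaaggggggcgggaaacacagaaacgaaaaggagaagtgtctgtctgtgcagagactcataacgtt

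H3K4me2, the substrate of LSD1, was mapped once in each stage, with lists that covered 49.8 Mb in GMPs, 97.9 Mb in preNeu and 80.4 Mb in matNeu, so that a larger cover in preNeu is found for the median gene too. Within 10 kb of the 10 genes lay 33, 42 and 35 peaks. A peak covered the annotated start of 9 of the 10 in every stage, all but *Phf21a*, beside 49.7%, 55.2% and 52.8% of protein-coding genes. Over all protein-coding genes with such a peak, its median fold enrichment was 3.59 in GMP, 10.4 in preNeu and 8.45 in matNeu. The fold enrichments below are to be read against these medians.

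At *Gfi1* the peaks covered 34.9%, 60.3% and 44.3% of the gene with its flanks, where the median gene had 3.83%, 6.43% and 4.81%. Only 1.29%, 0.757% and 2.21% of protein-coding genes had as much. The peak over the start was 6.97 kb wide in GMPs, 15.1 kb in preNeu, where it ran over the whole coding part of the gene, and 10.5 kb in matNeu, with fold enrichments of 3.96, 13.2 and 11.4. The median start peak of all genes, too, was higher in preNeu and matNeu than in GMPs. A broad H3K4me2 domain was thus found at *Gfi1* also in the stage in which its RNA was listed at 0, 0 and 0.145 TPM.

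*Gfi1b* had a narrow and low peak at its start in each stage, of 0.955, 1.49 and 0.530 kb and fold enrichments of 2.49, 2.92 and 2.92, and 10.7%, 11.1% and 6.43% of its window was covered. Its strongest CHD4 site had no H3K4me2 peak over the summit in any stage, whereas that of *Gfi1* had one in all 3. Of the 27 CHD4 summits 13, 16 and 15 lay under H3K4me2 in GMP, preNeu and matNeu, beside 29.7%, 56.5% and 49.1% of all wild type CHD4 summits.

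Among the partner genes, *Hdac3* and *Hmg20b* had the widest cover of the gene with its flanks, with 18.1%, 32.7% and 31.5% for *Hdac3* and 32.8%, 41.7% and 33.8% for *Hmg20b*. At *Hdac3* this includes a peak downstream of the gene, 16.0 kb wide in preNeu and 17.8 kb in matNeu, that runs past the window. At *Hmg20b* it includes an upstream peak of 4.25, 4.80 and 3.14 kb over the stages. These shares also depend on gene length (4.43 kb for *Hmg20b*, 272 kb for *Phf21a*) and were not compared with genes of like length. *Hdac1* had 8.86%, 19.4% and 15.003%, *Rcor3* 9.41%, 10.6% and 8.69% and *Rcor1* 6.24%, 8.51% and 7.88%. *Kdm1a* had 4.41%, 5.04% and 3.04%. *Hdac2* had 5.18%, 6.20% and 5.72%, all in 1 peak over its start that had fold enrichments of 3.04, 10.8 and 13.1, so that in matNeu, where its RNA was lowest, its promoter peak was among the higher ones (above 98.96% of peaks in that list).

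**Figure D5:**
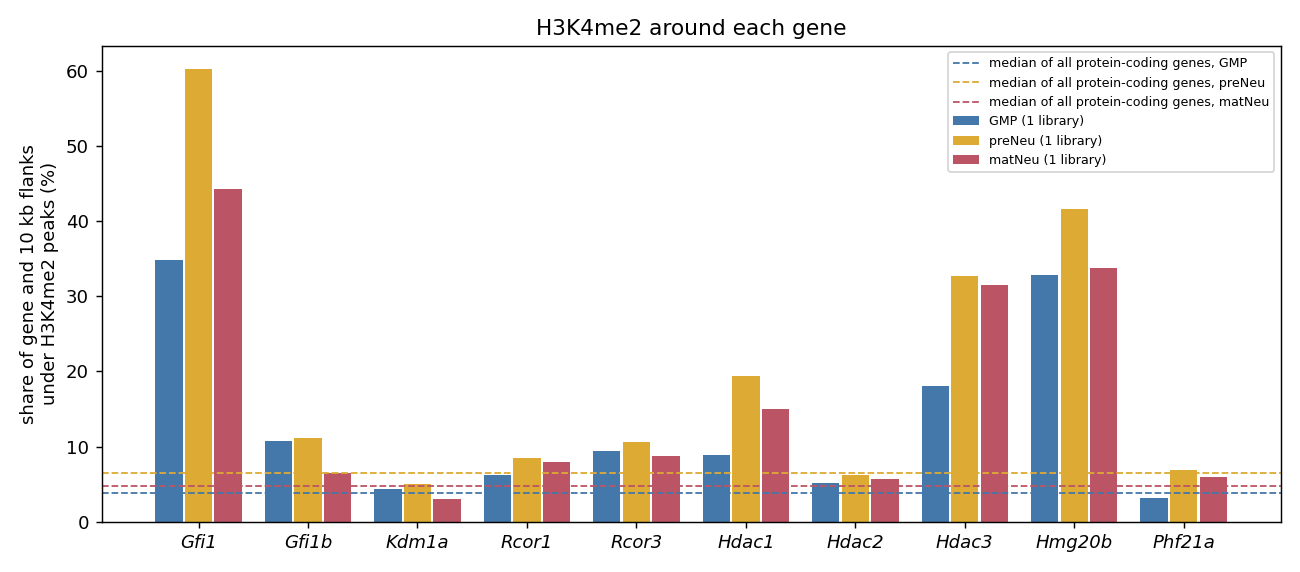
Share of each gene and its 10 kb flanks under H3K4me2 peaks (%, y axis from 0) in GMP, preNeu and matNeu cells, with 1 library per bar and no error. Dashed lines are the medians of all protein-coding genes. *Gfi1* stands highest in every stage, at 34.9%, 60.3% and 44.3%.

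*Phf21a* is the exception at its annotated start, but not at the start that RefSeq gives, at position 92185483 of chromosome 2 within the gene. There a peak had fold enrichments of 4.16, 9.44 and 7.67 and widths of 4.10, 6.95 and 8.06 kb in GMP, preNeu and matNeu. It was widest in the stage with the most *Phf21a* RNA. Its fold enrichment was higher in preNeu, as was that of the median start peak of all genes. Another RefSeq start, at position 92221472, had no peak. Around the gene 8, 17 and 13 peaks were found. The window of the marked start is shown, in the direction of the gene, since it is the one over which the mark lay. It holds no AAATCA.
Phf21a promoter, chr2:92185233-92185532: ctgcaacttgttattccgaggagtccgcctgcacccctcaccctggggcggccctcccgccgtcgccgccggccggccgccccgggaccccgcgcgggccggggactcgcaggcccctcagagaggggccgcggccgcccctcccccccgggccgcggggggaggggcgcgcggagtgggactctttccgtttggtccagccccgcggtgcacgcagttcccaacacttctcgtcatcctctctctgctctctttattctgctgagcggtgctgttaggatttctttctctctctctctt

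ATAC-seq records open chromatin. Its lists for preNeu and matNeu held the same 16307 peaks and were read as 1 list whose stage is unclear. A peak lay over the annotated start of 7 of the 10 genes, beside 30.3% of protein-coding genes, and not over those of *Gfi1*, *Gfi1b* or *Phf21a*. *Gfi1* had 2 peaks in its window and *Gfi1b* none.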

How the data were processed

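Bone marrow cells of mice were sorted, and RNA-seq, ChIP-seq and ATAC-seq libraries were grouped by their titles. For RNA-seq the authors deposited 1 table of TPM values. Per the labels, reads were aligned with Tophat and counted with HTSeq, while the submitters' processing notes name kallisto 0.44.0, Trimmomatic 0.36, BWA 0.7.17, MACS2 2.1.0 and the build mm10, so that how TPM was computed, and whether by strand, is not given in the sources used here. No column was left unmapped (0 columns). TPM keeps no depth, so no count test was run. Each ChIP-seq or ATAC-seq library has 1 peak list, in which the authors deposited fold enrichment (a linear ratio to local background) and the −log10 q-value as their peak caller gave them. The deposited score of each peak was not used. Lists for GFI1 and H3K4me3 had peaks beyond the ends of GRCm38 chromosomes (3105 and 2179) and were not used.

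The 10 genes, both gene lists and the marker lists were chosen with earlier results of these data known. All 10 genes are named, with the lowest adjusted p in matNeu against GMP as the rule for list examples. Genes that reached 1 TPM in 3 or more libraries were fitted with limma 3.58.1 (R 4.3.3) on log2(TPM + 1), with a mean per cell type, a variance trend, two-sided tests and Benjamini-Hochberg adjustment over all genes at 0.05. Changes are on that scale and understate those of low genes. With 3 against 3 libraries an exact permutation test cannot go under 0.1. On simulated data for matNeu against GMP (13061 genes) the fit recovered 117 of 200 changed genes with 5 false calls among 122. Far fewer genes were changed there than were called in the data, at fixed sizes and without a shift of the median. These rates therefore do not carry over to the calls reported here. Replicate numbers were checked for pairing and did not pair the libraries.

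Peaks were read with Python 3.11.15 and pandas 2.3.3, assigned to a gene within 10 kb (GENCODE M21, 21938 protein-coding genes) and called kept when peaks overlapped by at least 1 bp. Sequences came from GRCm38 (samtools 1.23.1, pysam 0.24.0) and RefSeq promoter windows. The depth behind peaks is unknown. Alternatives were a pseudocount of 0.1, other filters (none, or 5 TPM), 2 other scalings, the compared groups alone, a replicate block, no trend, a minimum log2 change of 1, each library left out, a −log10 q-value of at least 5, windows of 5 kb or the gene body, and an overlap of 50% of the shorter peak.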

Additional observations from a re-analysis of the deposited data

How the results depend on the processing

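Of 651 values recomputed under alternatives, 595 kept their direction and their side of the threshold (counts within 1.5 times). Scaling mattered most. For preNeu against GMP, genes of the group called higher numbered 0 with a pseudocount of 0.1, 4 under the median of ratios and 4 without the 100 most abundant genes, and 1 was called lower under either scaling. Among all genes, 3022 were called higher and 3676 lower under the median of ratios, and 1276 higher with a minimum log2 change of 1. In matNeu against GMP, 4499 were called higher under the median of ratios. Signs turned for *Hdac2* (0.080) and *Hmg20b* (0.26) under the median of ratios and for *Hmg20b* (0.17) without the 100 genes in preNeu against GMP, for *Gfi1b* (-0.43 with a pseudocount of 0.1, -0.060 without the 100 genes) and *Kdm1a* (-0.026 without the 100 genes) in matNeu against preNeu, and for *Hmg20b* (0.21 under the median of ratios) in matNeu against GMP. The cause was not tested.

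With each library left out in turn, genes of the group called lower numbered 3 to 4 in preNeu against GMP, 6 to 7 in matNeu against preNeu and 7 to 9 in matNeu against GMP. The sign turned for *Hdac1* in preNeu against GMP (-0.011 to 0.11) and for *Gfi1b* (-0.20 to 0.65) and *Kdm1a* (-0.019 to 0.43) in matNeu against preNeu. Calls from GMP to matNeu were lost for *Kdm1a* without GMP replicate 1 (adjusted p = 0.0586) or matNeu replicate 2 (0.0660), for *Rcor3* without GMP replicate 2 (0.0508) and for *Hmg20b* without GMP replicate 2 or 3 or matNeu replicate 1 or 2 (0.0544 to 0.0868). *Phf21a* was called lower in preNeu against GMP without GMP replicate 3 (-0.91, adjusted p = 0.0117) or preNeu replicate 3 (-0.84, adjusted p = 0.0277). Replicates of the same number correlated at -0.04 to 0.12, and with the replicate number as a block all 42 values were called as before, with 1 gene of the group higher and 3, 6 and 9 lower.

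In the gene body alone there were 16 CHD4 sites at the 10 genes in place of 27. Without sites at least 25% coding, added after seeing the data, 4 were kept in place of 10. Of 110 H3K4me2 peaks, 62 reached a −log10 q-value of 5, in GMPs 11 of 33 and in matNeu 23 of 35, and in GMPs there were 21 in the gene body alone.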

Other observations

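CHD4 sites on coding exons were also compared over the whole list, with the kept sites at *Gfi1* and *Gfi1b* included. Of the 6632 sites found in both CHD4 lists, 170 were coding over at least 25% of their bases. Their median ratio between the library labelled *Gfi1*-/- and wild type was 0.371 (interquartile range 0.263 to 0.746). A ratio above 0.5 was found for 34.1% of them, against 14% of the 6462 others (median 0.327). Among the 170 are also many low sites at predicted genes, such as *Gm10717* (wild type fold enrichment 2.37, ratio 0.839) and *Gm11168* (1.69, ratio 0.992). The part of these and of the *Gfi1* and *Gfi1b* sites in that share was not tested. Examples of coding sites of high ratio, chosen after seeing the values, were at *Ctnnb1*, the gene of beta-catenin (2.29 and 2.27), and *Cdadc1* (1.50). Others were at *Rag1*, the recombinase of lymphocytes (0.892), and *Zbtb16* (0.852). They are not the highest in order, since sites at *Zfp712* (1.30), *Cdc27* (1.26), *Vnn3* (1.13) and *Ranbp2* (1.11), among others, lay above these last ones. These ratios, too, were not matched for the height of the wild type site. The sources used here do not say why the coding sites differ, and the cause was not tested.

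*Chd4* itself was at 79.8 ± 7.60 TPM in GMPs, 42.2 ± 6.41 in preNeu and 31.7 ± 4.36 in matNeu (SD, n = 3). *Mbd3*, another NuRD subunit gene, was at 55.4 ± 12.5, 17.5 ± 1.71 and 2.78 ± 2.36 TPM.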
